A study of Mus musculus with 12 samples.

Results

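The fibroblast-type collagens are the 6 genes that encode the chains of collagens I, III and V: Col1a1, Col1a2, Col3a1, Col5a1, Col5a2 and Col5a3. They were taken by symbol, as a family that marks chondrocytes which have lost their cartilage character, and the rule uses no measured value, although results of these data were known when they were chosen. Each of the 6 was paired with 1 Ensembl ID among the 57010 in the count tables, and each was among the 14253 genes that passed the filter on low counts and were tested. The 12 libraries came from chondrocytes, which make the matrix of cartilage, taken as primary cells from mice whose genotype label was wild type throughout. The treatment labels named 3 groups of 4 libraries: Control, WT and SIRT5F101L mutant. Cells of the last 2 groups had received a wild-type plasmid or one labelled SIRT5F101L mutant. SIRT5 is a sirtuin of mitochondria and cytosol that strips malonyl and other acidic acyl marks from lysine residues, and the wild-type plasmid is taken here to carry its unmutated form. The treatment of Control cells, the strain and age of the mice, the time after transfection and the share of cells that took up plasmid are not given in the sources used here, so that transfection and plasmid content cannot be told apart in any comparison with Control.

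Fibrillar collagens are triple helices of chains that are folded in the endoplasmic reticulum, trimmed outside the cell and assembled into fibrils. Collagen I, a heterotrimer of chains from Col1a1 and Col1a2, is the bulk collagen of bone, tendon and skin, and collagen III, a homotrimer from Col3a1, is laid down with it in soft tissue. Collagen V, built from the chains of Col5a1, Col5a2 and in some tissues Col5a3, is a minor component that starts fibrils and limits their width. Cartilage fibrils are made mainly of collagen II, from Col2a1, and chondrocytes grown in monolayer are known to lose collagen II and gain collagens I and III, a change called dedifferentiation.

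Library totals ran from 15095357 to 24242139 counts. Levels are given as CPM, counts scaled to the size of their library, after TMM scaling, a correction for differences in library composition, and 1 count was worth 0.0413 to 0.0662 CPM. Col5a3 had 210 to 501 counts in a library and was the least deeply counted of the 6. On principal components of log2 CPM, the first component (72.7% of the variance) separated Control from both plasmid groups. On the second (5.66%) SIRT5F101L replicate 1 stood apart, at 20.3 against -23.5 to -17.0 in the other SIRT5F101L libraries, and lay beside WT replicates 2 to 4, at 12.5 to 20.1. WT replicate 1, at -1.07, lay between these libraries and the other SIRT5F101L libraries. The counts of SIRT5F101L replicate 1 differed from those of WT replicate 4 by 2.61 times sampling noise. From those of the other SIRT5F101L libraries they differed by 8.19 to 8.92 times. Counts of WT replicate 1 differed from those of the other WT libraries by 3.63 to 5.80 times sampling noise and from those of SIRT5F101L replicates 2 to 4 by 4.0 to 4.75 times. Regressed on log2 transcript length, log2 CPM of SIRT5F101L replicate 1 had a slope of 0.586. In the other SIRT5F101L libraries the slope was 0.726 to 0.748. It was 0.609 to 0.647 in WT replicates 2 to 4, 0.697 in WT replicate 1 and 0.579 to 0.601 in Control. Comparisons between the plasmid groups are therefore given with and without SIRT5F101L replicate 1. That library was picked from these same counts, for its likeness to WT libraries. Leaving it out can widen the difference between the plasmid groups, so calls in that fit are a description only. Replicate numbers follow the order of deposition and only name libraries. Sirt5 itself was at 0.479 to 0.874 CPM in Control, 0.0514 to 0.577 in WT and 0.481 to 1.23 in SIRT5F101L, so the labelled plasmids were not visible in its counts. Replicates are separate samples in the labels, but nothing says that they came from separate cultures or animals, so p-values measure the spread between these samples, which may be technical.

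In Control all of these genes but Col5a3 were among the most abundant mRNAs. The 6 genes together held 3.90% ± 0.275 (SD, n = 4) of all counts in Control, 1.51% ± 0.0760 in WT and 1.46% ± 0.0813 in SIRT5F101L. By mean CPM in Control, Col1a2 ranked 3 and Col1a1 ranked 4 among the 14253 genes, followed by Col3a1 at 10, Col5a2 at 11, Col5a1 at 45 and Col5a3 at 8440. In WT the ranks were 12 for Col1a2, 13 for Col1a1, 27 for Col3a1, 8 for Col5a2, 171 for Col5a1 and 7362 for Col5a3. In SIRT5F101L they were 16, 17, 26, 10, 173 and 7115 for the same genes in that order. Col5a2 was thus the highest ranked of the family with either plasmid, although its own level was lower than in Control.

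Levels of different genes were compared per kb of the longest annotated transcript (5.93 kb for Col1a1, 5.348 for Col1a2, 5.564 for Col3a1, 8.406 for Col5a1, 6.625 for Col5a2 and 6.119 for Col5a3). In Control the order was Col1a2 (2665 CPM per kb), Col1a1 (2141), Col3a1 (1165), Col5a2 (813), Col5a1 (211) and Col5a3 (1.99), and no neighbours in that order overlapped between libraries. In WT it was Col1a2 (716 CPM per kb), Col5a2 (644), Col1a1 (625), Col3a1 (430), Col5a1 (78.2) and Col5a3 (3.05), with Col5a2 and Col1a1 overlapping. In SIRT5F101L it was Col1a2 (670.0 CPM per kb), Col5a2 (617), Col1a1 (574), Col3a1 (463), Col5a1 (74.8) and Col5a3 (3.30), and the libraries of Col5a2 overlapped those of Col1a2 and of Col1a1. Of the summed length-scaled level of the 6 genes, Col5a2 made up 11.6% in Control, 25.8% in WT and 25.7% in SIRT5F101L. The share of Col1a2 was 38.1%, 28.7% and 27.9%, and that of Col1a1 30.6%, 25.0% and 23.8%, in the same group order. Col3a1 held 16.7%, 17.2% and 19.3%, Col5a1 3.01%, 3.13% and 3.11%, and Col5a3 0.0286%, 0.123% and 0.137%.

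**Figure D1:**
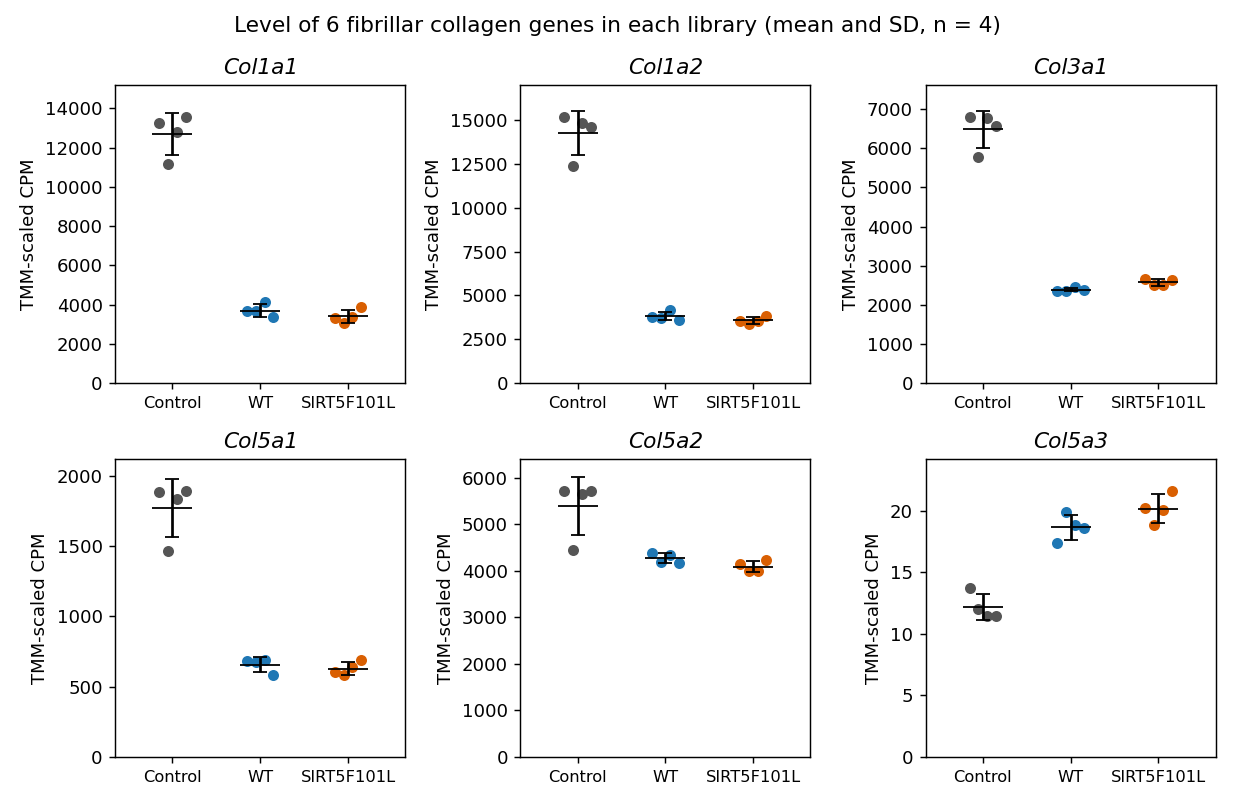
Level of each of the 6 collagens in the 12 libraries, in TMM-scaled CPM on linear axes that start at 0, with points for libraries and bars for the group mean and SD (n = 4). Control libraries lie above all plasmid libraries for 5 genes and below them for Col5a3, where Control runs from 11.5 to 13.7 CPM.

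All 6 genes differed from Control with either plasmid, tested with edgeR (a quasi-likelihood fit of counts), with p-values adjusted by Benjamini and Hochberg's method over the 14253 genes and called under 0.05. Col1a1, Col1a2, Col3a1, Col5a1 and Col5a2 fell and Col5a3 rose. With WT, 56.8% of all tested genes passed the same test, 28.7% higher and 28.1% lower, and with SIRT5F101L 60.7% passed, 30% higher and 30.7% lower. There was no overlap between groups for any of the 6 in either comparison, against 53.5% of all genes for WT and 51.3% for SIRT5F101L. With a background of that size, the count called says little about the family, and the sizes of the changes are given gene by gene. Both comparisons use the same 4 Control libraries.

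Among the 6, the collagen I genes had the lowest log2 fold changes. Col1a1 (ENSMUSG00000001506, chromosome 11), which encodes the chain present in a pair of copies in each collagen I molecule, was at 13237, 11167, 12820 and 13570 CPM in Control replicates 1 to 4. It was at 3683, 3655, 4122 and 3357 CPM in WT and at 3342, 3046, 3363 and 3863 CPM in SIRT5F101L. The lowest Control library, replicate 2, lay far above the highest plasmid library, and the plasmid groups overlapped. Mean levels were 12698 ± 1066, 3704 ± 315 and 3404 ± 339 CPM (SD, n = 4). The log2 fold change was -1.78 with WT (SE 0.0841, edgeR adjusted p 3.41e-13), which is 3.43-fold lower. With SIRT5F101L it was -1.90 (SE 0.0844, edgeR adjusted p 1.16e-13), 3.73-fold lower.

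Col1a2 (ENSMUSG00000029661, chromosome 6), the gene of the partner chain, followed the same course. It was at 15180, 12377, 14844 and 14609 CPM in Control, 3797, 3737, 4185 and 3595 CPM in WT, and 3568, 3397, 3529 and 3837 CPM in SIRT5F101L. Control replicate 2 was again the lowest of its group, and Control did not overlap either plasmid group. The log2 fold change was -1.90 with WT (SE 0.0749, edgeR adjusted p 1.73e-14) and -1.99 with SIRT5F101L (SE 0.0751, edgeR adjusted p 8.08e-15). These are 3.72-fold and 3.98-fold lower levels.

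Collagen III mRNA fell less on the log2 scale. Col3a1 (ENSMUSG00000026043, chromosome 1), its only chain gene, was at 6800.0, 5788, 6767 and 6570.3 CPM in Control. It was at 2362, 2360.4, 2454 and 2385 CPM in WT and at 2673, 2498, 2499 and 2640.1 CPM in SIRT5F101L. Every SIRT5F101L library lay above every WT library, and both groups lay below Control. The log2 fold change was -1.44 with WT (SE 0.0629, edgeR adjusted p 9.27e-14), 2.71-fold lower, and -1.33 with SIRT5F101L (SE 0.0627, edgeR adjusted p 3.10e-13), 2.51-fold lower. Of its exon sequence 1.44% overlaps the predicted gene Gm47302.

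The 3 genes of collagen V went separate ways. Col5a1 (ENSMUSG00000026837, chromosome 2), the chain found in most collagen V molecules, was at 1889, 1465, 1839 and 1895 CPM in Control, 683, 678, 687 and 581 CPM in WT and 606, 583, 637 and 690.4 CPM in SIRT5F101L. Control replicate 2 and WT replicate 4 were each well below the others of their group. Its log2 fold change was -1.43 with WT (SE 0.0833, edgeR adjusted p 9.40e-12) and -1.49 with SIRT5F101L (SE 0.0834, edgeR adjusted p 4.59e-12), or 2.70-fold and 2.82-fold lower. Exons of 2 other genes, 2810430I11Rik and Gm13372, overlap 2.5% of its exon sequence.

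Col5a2 (ENSMUSG00000026042, chromosome 1), the gene of the chain that pairs with the Col5a1 product, moved much less. It was at 5707, 4454, 5656 and 5721 CPM in Control, 4372, 4198, 4337 and 4156 CPM in WT, and 4148, 3991, 3987 and 4225 CPM in SIRT5F101L. Control replicate 2 lay just above the highest WT library, so the groups were separate by a narrow margin. The log2 fold change was -0.34 with WT (SE 0.0725, edgeR adjusted p 0.000547), 1.26-fold lower, and -0.40 with SIRT5F101L (SE 0.0726, edgeR adjusted p 8.99e-05), 1.32-fold lower.

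Col5a3 (ENSMUSG00000004098, chromosome 9), the gene of the third and more tissue-restricted collagen V chain, was scarce and rose. It was at 13.7, 12.1, 11.5 and 11.5 CPM in Control, 17.4, 19.9, 18.8 and 18.6 CPM in WT, and 20.2, 18.8, 20.1 and 21.7 CPM in SIRT5F101L. All plasmid libraries lay above all Control libraries. The log2 fold change was 0.62 with WT (SE 0.0901, edgeR adjusted p 7.28e-06), 1.53-fold higher, and 0.73 with SIRT5F101L (SE 0.0896, edgeR adjusted p 6.85e-07), 1.66-fold higher. In bulk RNA, fewer cells of a type and less RNA per cell cannot be told apart, and this holds for each of these changes.

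The position of the family among all tested genes was read from the log2 fold changes. The median over the 14253 genes was -0.01 with WT and -0.02 with SIRT5F101L, and the median over the 6 collagens was -1.43 and -1.41. With WT, Col1a2 stood at percentile 2.60 from the lowest, Col1a1 at 3.02, Col3a1 at 4.45, Col5a1 at 4.51, Col5a2 at 26.7 and Col5a3 at 83.8. With SIRT5F101L the percentiles were 2.26 for Col1a2, 2.5 for Col1a1, 5.07 for Col3a1, 4.14 for Col5a1, 25.1 for Col5a2 and 85.2 for Col5a3. Thus 4 of the 6 lay near the bottom of the distribution, while Col5a2 and Col5a3 lay within its bulk.

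**Figure D2:**
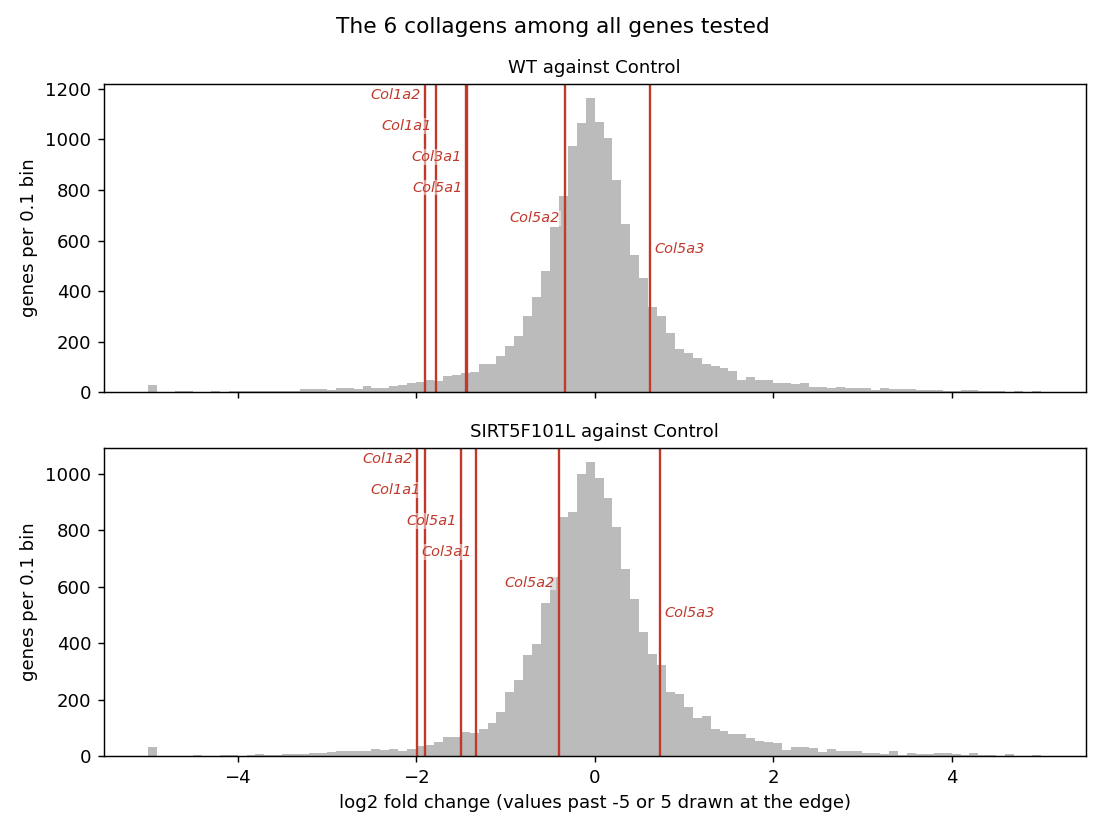
Distribution of log2 fold changes against Control over all 14253 tested genes, for WT and for SIRT5F101L, with the 6 collagens marked by lines. Col1a1, Col1a2, Col3a1 and Col5a1 lie in the lower tail in both panels, Col5a2 and Col5a3 on either side of the centre.

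The stretch upstream of each gene's start was examined for 4 of the 6 genes, because the family split into falling and rising members. Sequences are from RefSeq on build GRCm38.p6 and cover the 250 bases before the annotated start, read 5′ to 3′ on the gene's strand. The windows are chr6:4505368-4505617 (plus strand) for Col1a2, chr1:45311288-45311537 (plus) for Col3a1, chr2:27886175-27886424 (plus) for Col5a1 and chr9:20815068-20815317 (minus) for Col5a3. Capitals mark matches on either strand to 3 motifs. The first is the TATA box, with the letters TATAAA. The second is the CCAAT box, named for its letters. The third is the GC box, with the letters GGGCGG. Col1a1 and Col5a2 are not in the table.
Col1a2: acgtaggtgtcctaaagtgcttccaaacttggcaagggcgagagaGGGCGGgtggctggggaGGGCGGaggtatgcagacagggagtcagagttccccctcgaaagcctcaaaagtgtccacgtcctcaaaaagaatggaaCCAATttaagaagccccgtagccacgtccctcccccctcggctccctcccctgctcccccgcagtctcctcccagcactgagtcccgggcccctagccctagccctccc
Col3a1: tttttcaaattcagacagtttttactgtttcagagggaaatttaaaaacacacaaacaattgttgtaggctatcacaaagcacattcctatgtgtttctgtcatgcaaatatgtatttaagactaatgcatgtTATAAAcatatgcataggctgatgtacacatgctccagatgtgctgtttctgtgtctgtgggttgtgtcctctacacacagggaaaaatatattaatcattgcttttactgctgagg
Col5a1: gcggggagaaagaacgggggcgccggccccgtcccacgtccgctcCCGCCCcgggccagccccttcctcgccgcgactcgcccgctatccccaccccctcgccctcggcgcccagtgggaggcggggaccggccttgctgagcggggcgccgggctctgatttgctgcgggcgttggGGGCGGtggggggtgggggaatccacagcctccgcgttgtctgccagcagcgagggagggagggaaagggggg
Col5a3: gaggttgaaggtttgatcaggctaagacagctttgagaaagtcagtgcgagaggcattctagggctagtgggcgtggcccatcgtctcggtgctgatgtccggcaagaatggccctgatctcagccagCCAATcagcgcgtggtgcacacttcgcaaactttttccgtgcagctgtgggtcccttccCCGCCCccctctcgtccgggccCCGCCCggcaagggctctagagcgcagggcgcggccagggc
Col3a1 had 1 match to the TATA box, 117 to 112 bases before the annotated start, and Col5a1 had 2 GC boxes. Col1a2 had 1 CCAAT box and 2 GC boxes, and Col5a3 had 1 CCAAT box and 2 GC boxes. The strongly falling Col1a2 and the rising Col5a3 therefore held the same set of matches. No matches overlapped. An AP-1 site (TGANTCA) was matched in 0 of the 4. Over 32851 windows of the same length in that table, 12.4% held a TATA box, 33.8% a CCAAT box, 32.7% a GC box and 6.75% an AP-1 site. GC content was 62.0% for Col1a2, 35.2% for Col3a1, 76.4% for Col5a1 and 62.8% for Col5a3, against a median of 52.4%. A match is a description of letters, not of binding.

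Whether the F101L substitution altered these genes was asked by comparing the plasmid groups directly. None of the 6 passed edgeR's test, where 0.0421% of all tested genes did, 0.0281% higher and 0.014% lower in SIRT5F101L. The log2 difference, SIRT5F101L minus WT, was -0.12 for Col1a1 (95% interval -0.29 to 0.05, edgeR adjusted p 0.542) and -0.10 for Col1a2 (-0.25 to 0.06, edgeR adjusted p 0.585). It was 0.11 for Col3a1 (-0.02 to 0.24, edgeR adjusted p 0.479). Among the collagen V genes it was -0.06 for Col5a1 (-0.23 to 0.11, edgeR adjusted p 0.770), -0.06 for Col5a2 (-0.21 to 0.09, edgeR adjusted p 0.743) and 0.11 for Col5a3 (-0.07 to 0.30, edgeR adjusted p 0.587). Library values were separate between these groups for 1 of the 6, Col3a1, against 4.02% of all genes, 1.99% higher and 2.03% lower. The intervals leave room for differences of up to 0.30 in size for these genes and do not show that the plasmids act alike.

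Without SIRT5F101L replicate 1, the differences between the plasmid groups were -0.11 for Col1a1, -0.09 for Col1a2, 0.09 for Col3a1, -0.04 for Col5a1, -0.07 for Col5a2 and 0.12 for Col5a3. The edgeR adjusted p was 0.359 for Col3a1 and 0.381 for Col1a1, and 0.439 to 0.769 for the other 4. The share of all genes passing rose to 15.2% in that fit, and none of the 6 collagens was among them. None of the 6 passed without WT replicate 1 either, where edgeR called 0 of all genes and 2191 had an unadjusted p under 0.05. Against Control, none of the 6 lost its call or changed direction in the absence of any single library.

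**Figure D3:**
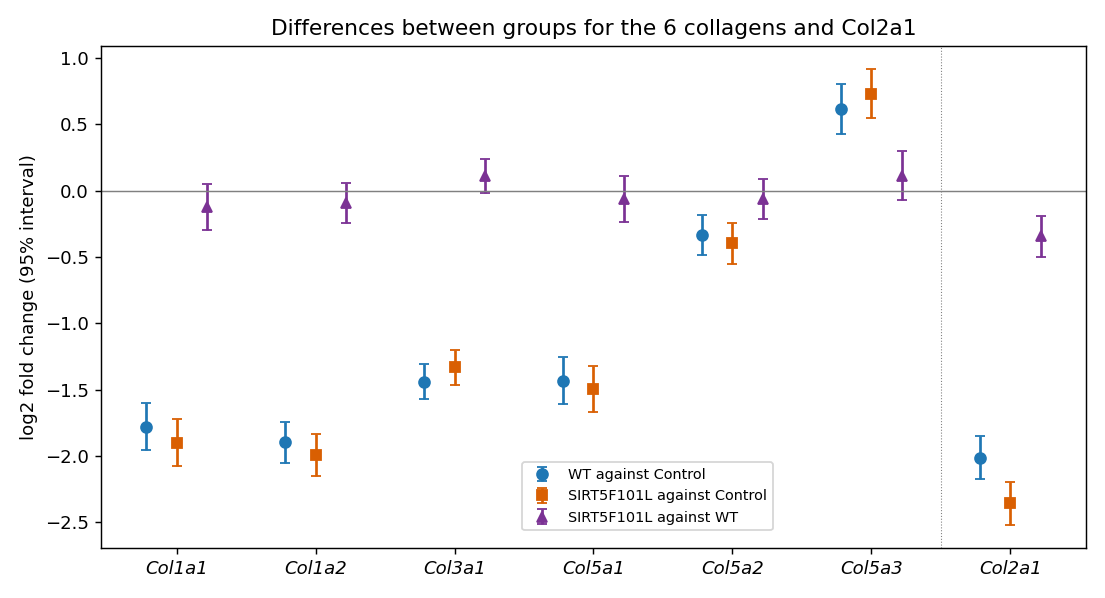
Log2 fold change of each of the 6 collagens and Col2a1 in the 3 comparisons, with 95% intervals from the fit of all 12 libraries and a line at 0. Both comparisons with Control lie away from 0 for each gene, and the intervals of SIRT5F101L against WT cross 0 for the 6 collagens.

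Ratios between 2 genes within a library need no scaling between libraries and were compared by exact 2-sided permutation tests over the 70 arrangements of 8 libraries. The smallest p such a test can give is 0.0286, which became 0.0400 after adjustment over 21 tests. Within collagen I, the count ratio of Col1a1 to Col1a2 was 0.892 ± 0.0298 in Control, 0.967 ± 0.0227 in WT and 0.948 ± 0.0456 in SIRT5F101L (SD, n = 4). The log2 ratio was 0.12 higher with WT (exact permutation adjusted p 0.0400), a difference that lost its call when Control replicate 1 or 3, or any WT library, was left out (adjusted p 0.0706 to 0.0800). With SIRT5F101L it was 0.09 higher (exact permutation adjusted p 0.10).

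Collagen III and the Col5a1 chain gained on collagen I. The ratio of Col3a1 to Col1a1 was 0.511 ± 0.0188 in Control, 0.648 ± 0.0473 in WT and 0.762 ± 0.0615 in SIRT5F101L. Its log2 was 0.34 higher with WT and 0.57 higher with SIRT5F101L (both exact permutation adjusted p 0.0400). Between the plasmid groups it was 0.23 higher with SIRT5F101L (exact permutation p 0.0571, adjusted 0.0750), with overlap between the groups. The ratio of Col5a1 to Col1a1 was 0.139, 0.178 and 0.185 in Control, WT and SIRT5F101L. Its log2 was 0.35 and 0.41 higher than in Control (both exact permutation adjusted p 0.0400) and differed by 0.06 between the plasmids (adjusted p 0.284).

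Within collagen V the proportions moved most. The ratio of Col5a2 to Col5a1 was 3.04 ± 0.0260 in Control, 6.51 ± 0.432 in WT and 6.52 ± 0.382 in SIRT5F101L, and its log2 was 1.10 higher in each plasmid group (exact permutation adjusted p 0.0400 for both). Per kb of transcript the same ratio was 3.86, 8.27 and 8.27. The ratio of Col5a3 to Col5a1 was 0.0069 in Control, 0.0286 in WT and 0.0321 in SIRT5F101L. That is 4.13-fold higher with WT and 4.66-fold higher with SIRT5F101L (exact permutation adjusted p 0.0400 for both). Between the plasmids the log2 difference was 0.17 (exact permutation adjusted p 0.10), and it was 0.23 (adjusted p 0.0400) without WT replicate 4, the library with the low Col5a1 level. Col5a3 remained a minor transcript beside the other collagen V genes in every library.

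**Figure D4:**
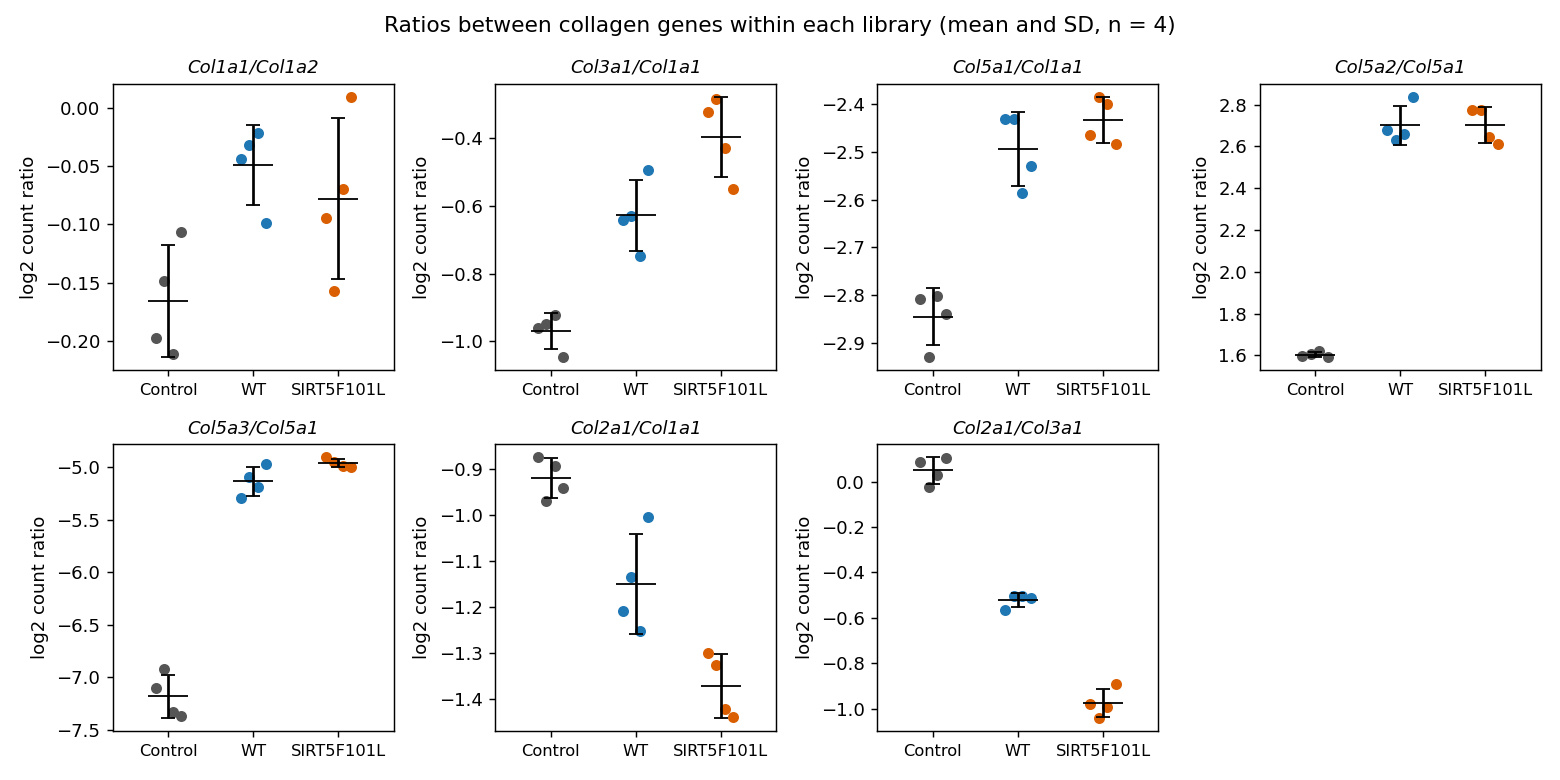
Log2 count ratios between collagen genes within each of the 12 libraries, by group, with points for libraries and bars for the group mean and SD (n = 4). Col5a2/Col5a1 and Col5a3/Col5a1 are higher in every plasmid library than in any Control library, and Col2a1/Col3a1 steps down from Control to WT to SIRT5F101L.

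Collagen II gives the cartilage side of the balance. Col2a1 was at 7213, 5700.5, 6894 and 7067 CPM in Control, 1594, 1663, 1731 and 1672 CPM in WT, and 1357, 1214, 1255 and 1423 CPM in SIRT5F101L. Its libraries fell into 3 separate ranges, highest in Control and lowest in SIRT5F101L. Against Control its log2 fold change of -2.01 with WT and -2.36 with SIRT5F101L stood beside -1.78 and -1.90 for Col1a1. Between the plasmid groups it was -0.34 (edgeR adjusted p 0.125), and it passed in 5 of 23 alternatives, with adjusted p from 5.12e-05 to 0.600 and log2 values from -0.39 to -0.23 over all 23. Without SIRT5F101L replicate 1 it was -0.36 (edgeR adjusted p 0.00108).

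Col1a1 and Col3a1 fell in level and yet rose relative to Col2a1. The ratio of Col2a1 to Col1a1 was 0.528 ± 0.0157 in Control, 0.451 ± 0.0343 in WT and 0.387 ± 0.0185 in SIRT5F101L. The difference in its log2 was -0.23 with WT, -0.45 with SIRT5F101L and -0.22 in SIRT5F101L against WT (each exact permutation adjusted p 0.0400). The first lost its call without any one Control library (adjusted p 0.0750), and the last without SIRT5F101L replicate 3 or 4 (adjusted p 0.0800 and 0.0750). The ratio of Col2a1 to Col3a1 was 1.03 ± 0.0411, 0.696 ± 0.0145 and 0.509 ± 0.0222 in the same order. Its log2 differed by -0.57, -1.02 and -0.45 in the 3 comparisons (each exact permutation adjusted p 0.0400), and it kept each call without any single library. Without SIRT5F101L replicate 1 the differences between the plasmids were -0.25 for Col2a1/Col1a1 and -0.45 for Col2a1/Col3a1 (exact permutation adjusted p 0.0400 for both). The ratios among the 6 collagens did not pass there either, with 0.21 for Col3a1/Col1a1, 0.07 for Col5a1/Col1a1, 0.16 for Col5a3/Col5a1 and -0.02 for both Col1a1/Col1a2 and Col5a2/Col5a1.

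Genes that work with these collagens were followed as lists, described by counts beside the shares over all genes given above. All 7 cartilage fibril collagens (Col2a1, Col9a1, Col9a2, Col9a3, Col11a1, Col11a2 and Col27a1) fell with both plasmids, with a median log2 fold change of -2.44 and -2.74. Col9a1, a chain of the collagen on the fibril surface, had log2 fold changes of -3.25 and -3.80, Col9a3 of -2.56 and -2.78 and Col11a2 of -2.73 and -3.36. Col11a2, a chain of the collagen that nucleates cartilage fibrils, was also lower in SIRT5F101L than in WT (-0.63, edgeR adjusted p 0.0339), a call that 11 of 23 alternatives lost. Without SIRT5F101L replicate 1 it was -0.62 (edgeR adjusted p 9.22e-05), and 4 of the 7 cartilage fibril collagens were lower in that fit. Of all genes 15.2% passed there, 6.66% higher and 8.58% lower.

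Folding and modification genes fell moderately. Of 16 tested, 11 fell and 0 rose with WT, and 12 fell and 0 rose with SIRT5F101L, with medians of -0.26 and -0.35. Serpinh1, the collagen chaperone of the endoplasmic reticulum, had log2 fold changes of -1.53 and -1.76, between those of Col5a1 and Col1a1. P3h3 (-0.71 and -0.82), P4ha1 (-0.61 and -0.53), P3h4 (-0.63 and -0.73) and Ppib (-0.52 and -0.67) fell less. P4ha1 is a subunit of prolyl 4-hydroxylase, which stabilises the triple helix.

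Of 7 tested propeptide processing genes, 5 fell and 1 rose with each plasmid. Adamts2, the protease that removes the amino-terminal propeptide of collagen I, had log2 fold changes of -1.60 and -1.53. Pcolce, the enhancer of carboxy-terminal processing, was at -0.89 and -1.01 and Pcolce2 at -0.59 and -0.73, while the protease gene Tll1 rose by 2.30 and 2.26. Of 11 tested fibril partners 7 fell and 1 rose with each plasmid. The log2 fold changes were -3.70 and -3.31 for Postn, -2.97 and -3.03 for Fmod, -1.87 and -1.74 for Thbs2 and -1.41 and -1.48 for Sparc. Dcn, which encodes a small proteoglycan that binds collagen I fibrils, was the gene that rose (1.44 and 1.66).

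Receptors and degrading enzymes were mixed. Of 8 collagen receptor genes, 4 fell and 3 rose with each plasmid. Itga11, whose product binds collagen I, had log2 fold changes of -2.83 and -2.65, Itga1 of -0.90 and -0.93 and Ddr1 of -0.65 and -0.80, while Itga2 rose by 2.57 and 2.84. Of 7 degradation genes 5 fell and 2 rose. Mmp13, a collagenase, rose by 2.56 and 2.82, while Mmp2 changed by -1.17 and -0.96 and Mmp14 by -0.92 and -1.0. Mmp1b had 0, 2, 0 and 0 counts in Control, 14 to 25 in WT and 24 to 41 in SIRT5F101L, so that its rise is called but its size is uncertain.

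Of 20 tested regulators of collagen I genes, 6 rose and 8 fell with WT, and 8 rose and 8 fell with SIRT5F101L, and their medians of -0.04 and -0.03 were near those of all genes. The transforming growth factor beta ligands Tgfb2 (-2.43 and -2.26) and Tgfb3 (-1.61 and -1.69) fell, and their receptor gene Tgfbr1 (1.60 and 1.75) and the transcription factor gene Ets1 (1.53 and 1.61) rose. Between the plasmid groups, none of the genes in the lists of folding, processing, partners, receptors, degradation and regulators passed edgeR's test with all 12 libraries. Without SIRT5F101L replicate 1, where 15.2% of all genes passed, 5 of 16 folding genes were lower, 0 of 7 processing genes differed and 3 of 11 partners were higher. Of the receptors 2 were higher and 1 lower, of the degradation genes 2 and 1, and of the regulators 3 and 1. Serpinh1 was at -0.31 in that fit (edgeR adjusted p 0.000457). Ogn, Bgn, Timp1, Timp3 and Scx were listed at 0 in all 12 libraries.

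**Figure D5:**
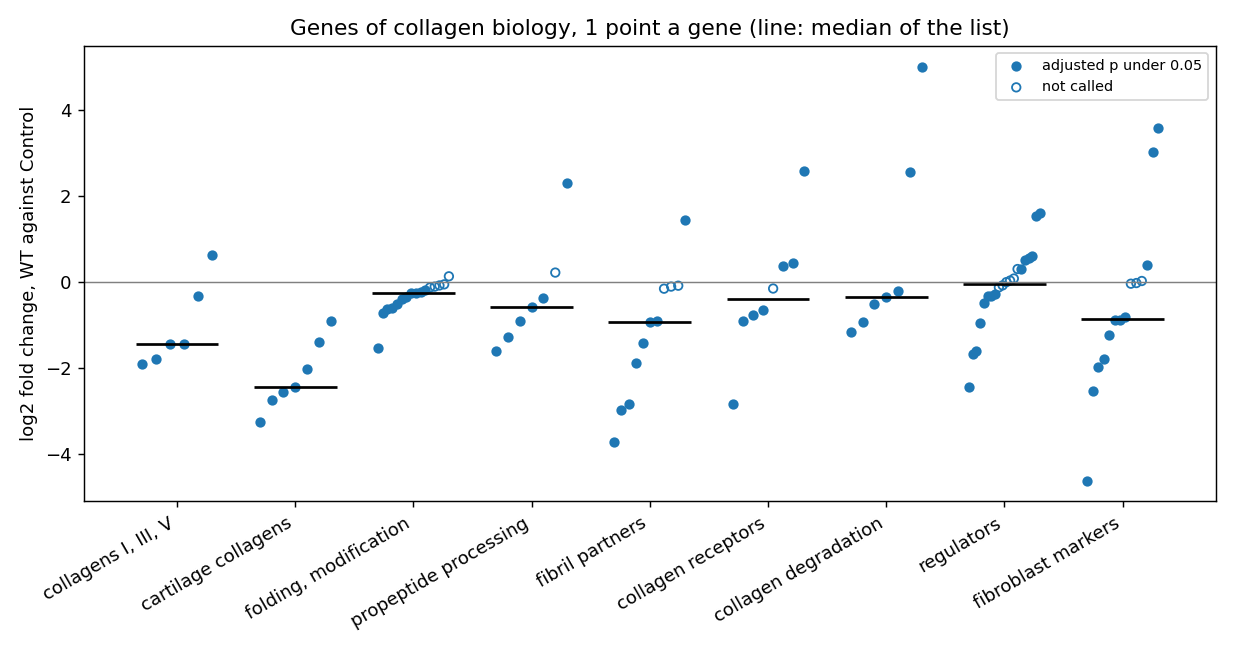
Log2 fold change against Control of each tested gene in the collagen-related lists and the fibroblast markers, for WT, with filled points for genes past the threshold, open points for the others and a bar at each list's median. The cartilage fibril collagens have the lowest median (-2.44), and the regulators spread to both sides of 0.

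The chondrocyte label was checked against its markers, and markers of other cells were read beside the collagens. Of 14 tested chondrocyte markers, 11 fell and 3 rose with WT, and 11 fell and 2 rose with SIRT5F101L. Their summed level was 8230 to 10243 CPM in Control, 2389 to 2523 in WT and 1951 to 2163 in SIRT5F101L, mostly Col2a1, and Chad was at 0. Comp (-3.26 and -3.44) and Cnmd (-5.43 and -5.42) were among those that fell. The others, named after their values were seen, were Sox5, which rose (0.72 and 1.09), Acan and Hapln1. Acan, the gene of the main cartilage proteoglycan, rose with WT (0.47, edgeR adjusted p 1.78e-05) and was at 0.10 with SIRT5F101L (edgeR adjusted p 0.243). Hapln1 rose by 0.25 and 0.18, the second a call that 9 of 23 alternatives lost, among them those without Control replicate 1, 2 or 3 or SIRT5F101L replicate 2 (edgeR adjusted p up to 0.175 in these). Of 14 tested markers of fibroblasts or dedifferentiated chondrocytes, 8 fell and 3 rose with each plasmid. Their sum was 11322 to 11967 CPM in Control, 7252 to 7569 in WT and 7422 to 8027 in SIRT5F101L, led by Vim. Acta2 (-2.52 and -2.80) and Thy1 (-1.22 and -1.21) fell with the collagens, and Vcan (3.58 and 3.81) and Cd34 (3.02 and 3.07) rose.

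Markers of osteoblasts and macrophages were read in the same way. Of 6 tested osteoblast markers 3 fell and 1 rose with each plasmid. Their sum was 1895 to 2071 CPM in Control, 13289 to 16535 in WT and 14466 to 16805 in SIRT5F101L, nearly all of it Spp1 (2.91 and 2.99 higher), and Phex was at 0. Sp7 (-1.68 and -1.53) and Bglap2 (-1.94 and -1.66) fell from low levels. Without WT replicate 2 the value of Bglap2 with WT was -2.94, and with SIRT5F101L its call was lost with the length slope as covariate (edgeR adjusted p 0.249). Ibsp had 183 to 342 counts in Control, 3 to 7 in WT and 0 to 5 in SIRT5F101L. All 8 macrophage and leukocyte markers fell with each plasmid, among them C1qb (-2.09 and -2.15), C1qa (-2.36 and -2.52) and Adgre1 (-2.03 and -1.89). Their sum was 186 to 219 CPM in Control, 87.1 to 100.9 in WT and 87.0 to 113 in SIRT5F101L, led by Lyz2 (-1.05 and -1.03). The part of these lists in the collagen values was not tested.

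Markers of other tissues were read last. Of 4 tendon markers Tnmd and Scx were listed at 0 in all 12 libraries. Tnmd is X-linked, as are Bgn, Timp1 and Phex, and all 2414 IDs placed on chromosome X were at 0, so these zeros do not bear on the cells. Whether the counting set the zeros of Scx, Ogn, Timp3 and Chad was not tested. Mkx rose (0.26 and 0.31), a call that 5 of 23 alternatives lost with WT, among them those without Control replicate 2 or WT replicate 1 (edgeR adjusted p up to 0.119 over the 5), and 2 of 23 with SIRT5F101L (up to 0.395). Tnc stood at 0.02 and 0.00. The tendon markers had a sum of 253 to 343 CPM in Control, 282 to 332 in WT and 272 to 319 in SIRT5F101L that was mostly Tnc. The endothelial sum stayed at 3.17 to 4.82 CPM with 0 of 4 tested markers called, and the adipocyte sum was at most 1.07 CPM and the erythroid sum at most 0.765. The muscle sum was 7.48 to 9.0 CPM in Control, 2.31 to 4.56 in WT and 1.87 to 3.69 in SIRT5F101L, and both tested markers, Acta1 and Des, fell.

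The genes most like each collagen were ranked by Pearson's r of log2 CPM over the 12 libraries, among 9744 named genes of at least 5 CPM. The libraries form separate Control and plasmid clusters and share depth and preparation, so r is a description and has no p. Col1a1 was most like Plekhg5 (0.997), Megf6 (0.996) and Ephb6 (0.996), and Col1a2 was most like Fmod, Comp and Col6a2 (each 0.998). Col3a1 was most like Ccdc80, C4b and Dkk3 (each 0.997), and Col5a1 was most like Pdgfrb, Ssc5d and Col11a1 (each 0.996). For Col5a2 the closest were Lamb2 (0.969), Cul7 (0.966) and Clstn1 (0.960), and for Col5a3 Qpctl (0.983), Plekha2 (0.980) and Nadk2 (0.979). Among the members themselves, the 5 falling genes correlated with each other at 0.896 to 0.998, and Col5a3 with them at -0.951 to -0.842.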

How the data were processed

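Counts per Ensembl gene were deposited by the authors as whole numbers, 1 table per library with no header. Per the submitters' processing notes, HISAT2 2.2.1, HTSeq 2.0.2, FastQC 0.11.9, DESeq2 1.38.3 and builds GRCm39 and mm39 were named. The strand setting is not given in the sources used here. Per the labels' protocols, mRNA was captured by poly(A) and sequenced as paired 150 bp reads. All 57010 IDs entered library totals, and 4981 had no symbol. Totals ran from 15095357 to 24242139 counts, with no molecular identifiers, so precision from depth covers counting error only. IDs on chromosomes X, Y and M (2414, 1547 and 37) were at 0 in all libraries. Every pair of libraries within a group differed by 2.56 to 8.92 times sampling noise, and pairs across groups by 2.61 to 35.9 times.

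All 12 libraries were fitted together with edgeR 4.0.16 (R 4.3.3, TMM, filterByExpr, quasi-likelihood, 9 residual degrees of freedom, 2-sided). The script was tested on simulated data. CPM is mean ± SD over 4 libraries. Chromosomes, lengths and overlaps came from GENCODE M21 (GRCm38), copies of at least 95% identity from BLAST 2.17.0: 2.53% of the longest Col3a1 transcript, 2.59% of Col5a1 and 0% of the other 4. Named were the 6 collagens, Col2a1, Sirt5, the 4 list genes with the lowest adjusted p in each comparison with Control, list genes called between plasmids, the top gene of each marker list, and the 3 genes most correlated with each collagen. A few further list genes were named after their values were seen. One gene that the rule takes is not reported here. Alternatives were other scalings, filters, priors, DESeq2 1.42.0, length and GC corrections and leaving out each library. Members and lists were chosen with earlier results of these data known.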

Additional observations from a re-analysis of the deposited data

Results flagged for a closer look

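Each of 45 measures, the 15 levels and ratios in 3 groups, was screened for a library far from the other 3 of its group with Dixon's test. The test marked 4 values, where chance gives 2.25. Col5a1 was at 1465 CPM in Control replicate 2, against 1839 to 1895 in the others, and at 581 CPM in WT replicate 4, against 678 to 687. Col5a2 was at 4454 CPM in Control replicate 2, against 5656 to 5721. The count ratio of Col2a1 to Col3a1 was 0.675 in WT replicate 1, against 0.701 to 0.705. The low Control library was the same for Col5a1 and Col5a2, and Col1a1, Col1a2 and Col3a1 were also lowest there.

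A pair of ratios differed between the plasmid groups by exact permutation tests (adjusted p 0.0400 each): the log2 ratio of Col2a1 to Col1a1 by -0.22, and that of Col2a1 to Col3a1 by -0.45, SIRT5F101L minus WT, each with no overlap in 4 against 4 libraries.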

How the results depend on the processing

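Against Control, the call and direction of each of the 6 collagens held in 138 of 138 alternative fits per comparison, and between the plasmids 137 of 138 were alike. The exception was Col5a1 with the GC trend as offset (0.0195, edgeR adjusted p 0.954). The count of all genes called between the plasmids, 6 in the report, was 354 with no filter beyond 1 count, 2 with a robust prior, 2 in a fit of the 8 libraries, 43 by DESeq2, 25 and 17 with the length slope or trend, and 0 with the GC trend (1326 genes at an unadjusted p under 0.05, edgeR). Leaving out single libraries gave 0 to 2213, the highest without SIRT5F101L replicate 1, 3 without Control replicate 2, and 0 without any other, with 945 to 2191 genes at an unadjusted edgeR p under 0.05. Over single libraries left out, log2 ratios ran from 0.10 to 0.14 for Col1a1/Col1a2 with WT, -0.28 to -0.20 for Col2a1/Col1a1 with WT and -0.26 to -0.17 between the plasmids, 0.12 to 0.23 for Col5a3/Col5a1 between the plasmids, and -0.0234 to 0.0465 for Col5a2/Col5a1 between the plasmids, whose sign turned in 5. The causes were not tested. No paired analysis was possible because the labels give no replicate numbers, and the numbers used here follow the order of deposition. Of the named list genes, 1110 and 1119 of 1124 alternative values were alike for SIRT5F101L and WT against Control. The rest lost their call, in Mkx, Bglap2 and Hapln1, apart from Acan with SIRT5F101L, which was at -0.0956 with the length trend as offset and was called with the GC trend (0.21, edgeR adjusted p 0.0146). No scaling moved the median of all genes by over 0.1. Depth limits Col5a3 most.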

Other observations

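Beyond the 6 fibroblast-type genes, 30 other collagen genes were tested. With WT 6 were higher and 14 lower than Control, where 56.8% of all genes were called, 28.7% higher and 28.1% lower. With SIRT5F101L 7 were higher and 12 lower, where 60.7% of all genes were called, 30% higher and 30.7% lower. Between the plasmids 0 were higher and 1, Col11a2, lower, where 0.0421% of all genes were called. Without SIRT5F101L replicate 1, 1 was higher and 5 lower, where 15.2% of all genes were called.

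Within groups, the libraries' deviations from their group means were also compared. The 5 falling collagens deviated together, with r of 0.684 to 0.923 over the 12 libraries, and 0.222 to 0.925 without Control replicate 2. Deviations of Col5a3 correlated with theirs at 0.0790 to 0.349, and at 0.150 to 0.446 without that library. The genes whose deviations were most like those of the collagens were Col4a2 (0.923), Clstn1 and Adamtsl4 for Col1a1, Fbln2 (0.977), Atp13a1 and Ptgfrn for Col1a2, and Col6a2 (0.984) and Nfe2l1 for Col3a1. They were Synpo (0.978), Prrc2a and Clstn1 for Col5a1, Thbd (0.957), Acp2 and Itga3 for Col5a2, and Cep250 (0.890), Gtf2h2 and Tdrp for Col5a3. Libraries share depth and preparation, and these values have no p.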
